A study of Mus musculus with 24 samples.

Results

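Fxyd4, S100a1, Napsa, Fabp3, Lst1, Smim22 and Trh, 7 genes whose proteins are best known from specialised tissues, were followed through the RNA fractions of mouse pluripotent cells. They are 7 of the 29759 genes in the deposited tables, and each symbol matched 1 row of each table. The genes were picked on measured values of these libraries, for a large difference between RNA fractions or for a fraction ratio that differed between cell states. The fits below ran over all genes. For these 7 the values, errors and calls are given as a description that supports nothing, because the genes were picked on them.

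The series measured RNA from the E14 mouse embryonic stem cell line in 2 states. Naive embryonic stem cells (nESC) were grown in serum-free N2B27 medium with the MEK inhibitor PD0325901, the GSK3 inhibitor CHIR99021 and leukaemia inhibitory factor. Epiblast-like cells (EpiLC) were made from them over 3 days on gelatin-coated plates in medium that held 20 ng/ml activin A together with 12 ng/ml bFGF, which moves the cells towards the state of the post-implantation epiblast. From each state, RNA was taken as total RNA and as chromatin, nucleoplasm and cytoplasm fractions, with 3 libraries for each of the 8 groups and 24 in all. All groups come from 1 line, so the libraries sample that line only. The labels do not say that the 3 libraries of a group came from separate cultures, so any p-value measures the spread between these libraries, which may be technical.

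Before a message reaches the ribosome it is transcribed and spliced on chromatin, released into the nucleoplasm and exported to the cytoplasm. A stable, quickly processed message is mostly cytoplasmic, while a message that is still being made, is slowly spliced or is held back gives reads in the chromatin fraction. Fxyd4 is a small membrane protein of kidney and colon that modulates the sodium pump. Smim22 is a small integral membrane protein of epithelia. Lst1 is a small membrane protein of leukocytes encoded in the class III part of the major histocompatibility complex. S100a1 is a calcium sensor of heart and skeletal muscle. Fabp3 is the fatty acid binding protein of heart and muscle. Napsa is an aspartic protease of lung and kidney that takes part in surfactant protein processing. Trh is the precursor of thyrotropin-releasing hormone, a hypothalamic peptide.

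The coding sequences of Fxyd4 and Smim22 are shown because Smim22 had the lowest chromatin level relative to cytoplasm of all genes in nESC and Fxyd4 the largest change of that relation between the states. They are read 5′ to 3′ from the GRCm38 annotation and transcripts, without the stop codon. Fxyd4-201 has 88 codons on the minus strand of chr6:117933732-117935893, and its capitals mark the codons of the FXYD motif that names the family, which start at codon 30. Smim22-201 has 91 codons on the plus strand of chr16:5007753-5008244, and none of its letters are capitals because no motif was searched in it.
Fxyd4-201: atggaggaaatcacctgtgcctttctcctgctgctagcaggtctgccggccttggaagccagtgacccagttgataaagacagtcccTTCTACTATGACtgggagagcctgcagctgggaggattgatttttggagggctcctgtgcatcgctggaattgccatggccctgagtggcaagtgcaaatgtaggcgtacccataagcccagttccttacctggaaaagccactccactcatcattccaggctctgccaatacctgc
Smim22-201: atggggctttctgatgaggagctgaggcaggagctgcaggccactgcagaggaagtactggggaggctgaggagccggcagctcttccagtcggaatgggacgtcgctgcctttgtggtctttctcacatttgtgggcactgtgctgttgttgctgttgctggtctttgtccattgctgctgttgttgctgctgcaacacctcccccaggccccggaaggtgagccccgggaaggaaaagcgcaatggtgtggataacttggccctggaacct

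The Trh message (1384 exonic bases, chr6:92242061-92244650, minus strand) encodes a precursor of 256 codons from which the hormone is cut several times over. The codons for glutamine, histidine, proline and glycine in a row, which give the hormone after cleavage and amidation, occurred 5 times, each time between paired basic codons. These units are shown because they encode the hormone. The capitals mark the hormone codons, and the units start at codons 75, 107, 152, 170 and 201.
Unit 1: aaacgcCAGCATCCGGGCaaaagg
Unit 2: aaacgaCAGCACCCTGGCcgacgt
Unit 3: aagcggCAGCACCCTGGCaggcga
Unit 4: aagaggCAGCATCCAGGCcggagg
Unit 5: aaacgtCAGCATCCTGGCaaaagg

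The 4 shortest messages were those of Lst1 (415 exonic bases, chr17:35185095-35188439, minus strand), Smim22 (561 bases, chr16:5007288-5008309, plus strand), S100a1 (694 bases, chr3:90511034-90514392, minus strand) and Fabp3 (823 bases, chr4:130308595-130315463, plus strand). Each lay in the shortest 1.92% or less of the protein-coding genes tested in nESC. Trh stood at the percentile 6.50 of exonic length. Fxyd4 (1957 bases, chr6:117933559-117937692, minus strand) stood at 13.8 and Napsa (2660 bases, chr7:44572380-44586862, plus strand) at 24.2, so "short" describes the first 4 better than the last 2. The annotation gives Fxyd4 9 transcripts, of which 3 are retained-intron forms, and gives Napsa 5 transcripts, of which 3 are retained-intron forms and 1 is coding. Fabp3, Lst1 and Trh have 1 transcript each. An annotated miRNA-class gene of 125 bases, Gm25535 (chr6:117935469-117935593), lies inside Fxyd4 and overlaps no exon of its 9 models.

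Expression is given in FPKM, fragments scaled by transcript length and by library size, as deposited. FPKM is a relative measure, so a higher value in a fraction does not mean more molecules per cell. The FPKM values summed to 451382 to 501218 in nESC chromatin libraries and to 1782228 to 1980223 in nESC cytoplasm libraries. A higher value in a fraction is therefore not always a larger share of that fraction's sum. In these bulk samples fewer expressing cells and less RNA per cell cannot be told apart. The marker genes followed the labels: 8 naive genes summed to 598.9 to 1227 FPKM in nESC libraries and 34.6 to 87.9 FPKM in EpiLC libraries, and 5 formative genes summed to 27.4 to 36.9 and 636.0 to 1583 FPKM. RNAs known to stay on chromatin summed to 4176 to 6235 FPKM in chromatin libraries and 188.1 to 390.7 FPKM in cytoplasm libraries. Malat1 gave most of these sums, with means of 4864 FPKM in nESC chromatin and 4545 FPKM in EpiLC chromatin. In nESC nucleoplasm it was listed at 3810 and 3590 FPKM in libraries 1 and 2 and at 0 in library 3. Low values fell on steps of whole fragments, with 1 FPKM in a transcript of 2 kb worth 31.0 to 47.7 fragments in chromatin, 24.3 to 44.6 in cytoplasm, 68.5 to 94.0 in nucleoplasm and, for total RNA libraries, 63.4 to 85.0. One library stood apart: in EpiLC chromatin library 3, 4.69% of 9319 genes lay at least 2-fold from the mean of the other 2 libraries, against 0.103% to 1.46% in every other library of the series. State differences that involve chromatin are also given below without the 4 EpiLC libraries numbered 3. So are the EpiLC chromatin minus cytoplasm values of Fxyd4, Fabp3 and Trh, but not those of Smim22, S100a1 and Napsa. With 1 library left out at a time, these last ran from -4.33 to -4.17 for Smim22, -2.36 to -2.22 for S100a1 and 0.50 to 1.05 for Napsa on the log2 scale. Markers of fibroblasts or feeder cells differed between the states: the 6 listed summed to 0.376 to 10.9 FPKM in nESC total RNA and 14.1 to 20.2 FPKM in EpiLC total RNA, and to 0.522 to 1.43 and 10.8 to 17.0 FPKM in cytoplasm. In EpiLC total RNA, Thy1 (7.32 FPKM) and Dcn (5.28 FPKM) gave most of the sum, and Col1a1 (0.249 FPKM) and Lum (0.0159 FPKM) were near 0. Their part in the state differences was not tested.

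**Figure D1:**
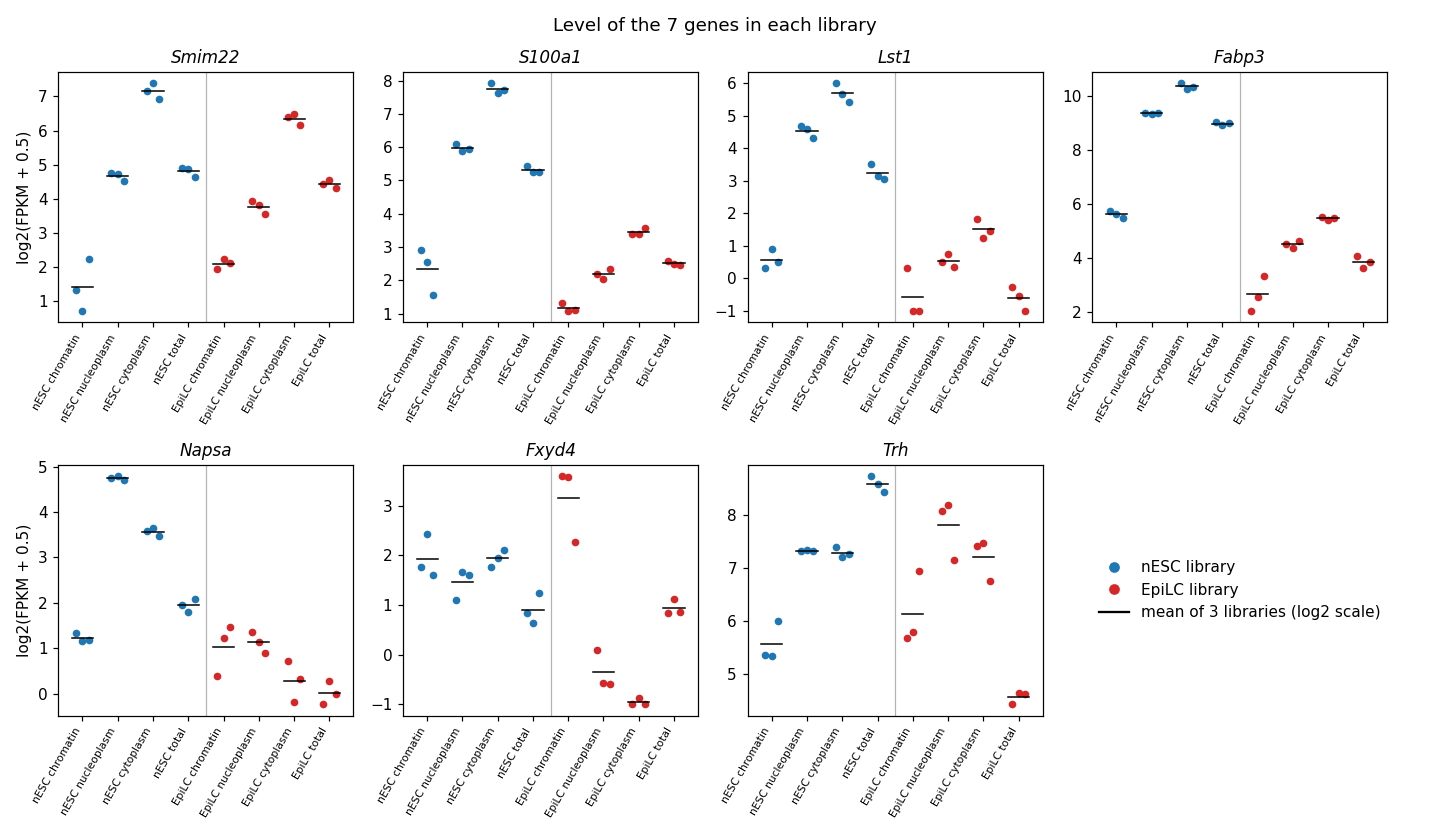
Level of each of the 7 genes in each of the 24 libraries, on the log2(FPKM + 0.5) scale (vertical axis) by group (horizontal axis), with points for libraries and lines for the mean of 3. S100a1, Fabp3 and Lst1 are highest in nESC cytoplasm, Fxyd4 is highest in EpiLC chromatin, and Trh is highest in nESC total RNA.

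Smim22 was mostly cytoplasmic in both states. In nESC it stood at 141.3, 166.6 and 120.8 FPKM in cytoplasm (142.9 ± 22.9, SD, n = 3) and at 2.00, 1.14 and 4.20 FPKM in chromatin (2.45 ± 1.58). In the nESC nucleoplasm it measured 26.5, 26.0 and 22.5 FPKM, and in total RNA 29.5, 29.0 and 24.6 FPKM. Every cytoplasm library was above every library of the other 3 kinds, and the chromatin libraries were the lowest. Such separation was common. Over all genes tested, the groups of 77.4% to 85.9% did not overlap in the 4 nESC contrasts fitted. In the 4 EpiLC contrasts it was 72.2% to 82.7%. Nothing is read from a lack of overlap, here or for the genes below. On the log2(FPKM + 0.5) scale chromatin minus cytoplasm was -5.73 (SE 0.28), the lowest value of all 12592 genes tested in nESC. In EpiLC the message was at 83.5, 88.3 and 71.8 FPKM in cytoplasm (81.2 ± 8.48) and at 3.35, 4.19 and 3.84 FPKM in chromatin (3.79 ± 0.420). EpiLC nucleoplasm gave 14.7, 13.6 and 11.4 FPKM and total RNA 20.9, 22.8 and 19.3 FPKM. By their means the 4 kinds of library had the same order in both states, total RNA and nucleoplasm overlapping in nESC, and the EpiLC chromatin minus cytoplasm value was -4.25 (SE 0.12). The 3 chromatin values in nESC rest on at most 7.96 to 33.5 fragments per library, so that the size of the nESC difference is known less well than its direction.

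Lst1 had the same cytoplasmic pattern in nESC and was near the detection floor in EpiLC. In nESC it stood at 63.1, 49.9 and 42.6 FPKM in cytoplasm (51.8 ± 10.4), at 25.3, 23.4 and 19.3 FPKM in nucleoplasm (22.7 ± 3.03), at 10.8, 8.36 and 7.76 FPKM in total RNA and at 0.745, 1.38 and 0.912 FPKM in chromatin. No 2 of these 4 groups overlapped. Chromatin was lower than cytoplasm by -5.12 (SE 0.18) and lower than nucleoplasm by -3.95 on the log2 scale. In EpiLC cytoplasm it was at 3.01, 1.87 and 2.27 FPKM (2.38 ± 0.577), and in nucleoplasm at 0.923, 1.19 and 0.785 FPKM. It was listed at 0 in 1 EpiLC total RNA library, with 0.337 and 0.180 FPKM in the others, and at 0 in 2 chromatin libraries, with 0.744 FPKM in the other, which is worth at most 4.82 fragments. The mean over the 12 EpiLC libraries was under the 1 FPKM that the tests required, so Lst1 has no EpiLC fold and no state difference here. Leukocyte markers did not accompany it, apart from Cd68 and Spi1 (1.72 FPKM in the nESC cytoplasm mean): Ptprc, Aif1, Csf1r and Itgam were under 1 FPKM in every group mean, Ptprc and Aif1 were at 0 in all 3 nESC cytoplasm libraries, and the sum of the 6 leukocyte markers ran from 31.9 to 33.7 FPKM there, of which Cd68, a lysosomal membrane protein, gave 31.1.

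S100a1 was highest in cytoplasm in both states and far lower in EpiLC. In nESC it stood at 242.3, 197.2 and 210.9 FPKM in cytoplasm (216.8 ± 23.1) and at 68.5, 58.6 and 60.8 FPKM in nucleoplasm (62.6 ± 5.20). Total RNA gave 43.0, 37.8 and 37.5 FPKM and chromatin 6.96, 5.38 and 2.43 FPKM. The 4 groups did not overlap, and chromatin minus cytoplasm was -5.42 (SE 0.25), the 8th lowest of all genes tested. In EpiLC, cytoplasm was at 10.004, 10.006 and 11.5 FPKM (10.5 ± 0.848), total RNA at 5.53, 5.16 and 4.98 FPKM, nucleoplasm at 4.08, 3.63 and 4.51 FPKM and chromatin at 1.98, 1.61 and 1.67 FPKM. The groups were again apart from each other, but closer together, with chromatin minus cytoplasm at -2.29 (SE 0.11).

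Fabp3 had the highest FPKM of the 7 messages in nESC cytoplasm and nucleoplasm. It stood at 1440.25, 1249.48 and 1307.89 FPKM in nESC cytoplasm (1332.54 ± 97.7), at 677.1, 654.8 and 663.6 FPKM in nucleoplasm (665.2 ± 11.2), at 527.1, 488.1 and 512.7 FPKM in total RNA (509.3 ± 19.7) and at 52.8, 49.4 and 44.3 FPKM in chromatin (48.9 ± 4.29). No groups overlapped, and chromatin minus cytoplasm was -4.76 (SE 0.08). In EpiLC the cytoplasm libraries stood at 45.4, 42.0 and 44.3 FPKM (43.9 ± 1.72), and nucleoplasm held 22.2, 20.3 and 24.4 FPKM. Total RNA gave 16.3, 11.9 and 13.8 FPKM and chromatin 3.57, 5.38 and 9.61 FPKM. EpiLC chromatin library 3 was 2.15-fold above the mean of libraries 1 and 2 and still below every total RNA library. Chromatin minus cytoplasm was -2.83 (SE 0.25) in EpiLC, and -3.17 without the libraries numbered 3. Fabp3 shares 80 bases with Gm10570 and 81 bases with Zcchc17, both on the opposite strand. Whether the counting used strand is not given in the sources used here, and Zcchc17 reached 21.6 FPKM at most in any group mean. The 6 muscle markers listed summed to 8.55 to 9.02 FPKM in nESC cytoplasm. Myl2 (6.72 FPKM) and Tnnt2 (1.72 FPKM) gave most of that sum, and Actc1 was at 0 there. In nESC nucleoplasm the 6 summed to 3.41 to 18.2 FPKM. In total RNA they summed to 2.10 to 3.23 FPKM in nESC and to 3.48 to 24.7 FPKM in EpiLC, where Actc1 had a mean of 5.54 FPKM. Myl2 was lower in EpiLC cytoplasm (1.15 FPKM), but in total RNA it was higher in EpiLC (5.01 FPKM) than in nESC (1.27 FPKM).

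Napsa was highest in nucleoplasm in nESC, where it stood at 26.5, 27.0 and 25.5 FPKM in nucleoplasm (26.3 ± 0.759) and at 11.4, 12.1 and 10.5 FPKM in cytoplasm (11.3 ± 0.794). It was at 3.39, 2.99 and 3.71 FPKM in total RNA and at 2.03, 1.74 and 1.75 FPKM in chromatin. The groups did not overlap. Nucleoplasm was 7.82-fold above total RNA and 14.3-fold above chromatin in FPKM means. In EpiLC, nucleoplasm held 2.07, 1.70 and 1.37 FPKM, chromatin 0.808, 1.82 and 2.26 FPKM, cytoplasm 1.14, 0.383 and 0.751 FPKM and total RNA 0.352, 0.717 and 0.491 FPKM. Chromatin overlapped nucleoplasm and cytoplasm there, and cytoplasm overlapped total RNA. No EpiLC group mean of Napsa was above 1.72 FPKM, so it passed the filter of 1 FPKM narrowly. Its EpiLC cytoplasm values rest on at most 13.3 to 33.4 fragments per library and lie near the 0.5 FPKM added before the log. The 6 lung and kidney markers (such as Sftpc and Umod, both at 0 in every nESC library) summed to at most 0.780 FPKM in any library. An antisense gene that covers 6895 bases of the Napsa span, Gm15396, stayed at or under 0.272 FPKM in every group mean.

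Fxyd4 had its highest level in EpiLC chromatin. Its mean over the 12 EpiLC libraries passed the filter through those chromatin libraries, so a higher value there is built into its selection. In nESC it was low in every kind of library, with 2.91, 4.89 and 2.55 FPKM in chromatin (3.45 ± 1.26), 2.92, 3.35 and 3.83 FPKM in cytoplasm (3.37 ± 0.452), 1.65, 2.69 and 2.56 FPKM in nucleoplasm (2.30 ± 0.568) and 1.30, 1.06 and 1.85 FPKM in total RNA (1.405 ± 0.403). Chromatin and cytoplasm overlapped, and their difference was -0.01 (SE 0.23). In EpiLC chromatin it stood at 11.5, 11.5 and 4.35 FPKM (9.14 ± 4.15), while nucleoplasm held 0.560, 0.174 and 0.163 FPKM. In EpiLC cytoplasm Fxyd4 was listed at 0 in 2 libraries and at 0.0443 FPKM in the other, which is worth at most 1.18 fragments. Total RNA was at 1.30, 1.68 and 1.30 FPKM (1.43 ± 0.221), the same range as in nESC. The 4 EpiLC groups did not overlap: chromatin was above total RNA, total RNA above nucleoplasm, and nucleoplasm above cytoplasm. Because cytoplasm is at the floor, no ratio of FPKM means is given, and the EpiLC chromatin minus cytoplasm value depends on the pseudocount. It was 4.11 (SE 0.31) with 0.5 FPKM added, 6.22 with 0.1 and 3.22 with 1. It was 4.53 without the EpiLC libraries numbered 3, the third of which held 0.377 times the chromatin level of the first pair.

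Trh showed its extremes in total RNA and not between the fractions. In nESC, total RNA stood at 419.6, 381.6 and 340.7 FPKM (380.7 ± 39.5), above nucleoplasm at 159.2, 160.8 and 157.7 FPKM (159.2 ± 1.55), cytoplasm at 166.7, 146.7 and 151.9 FPKM (155.1 ± 10.4) and chromatin at 40.7, 39.9 and 63.6 FPKM (48.1 ± 13.4). Nucleoplasm and cytoplasm overlapped, and both were apart from total RNA and chromatin. In EpiLC the total RNA libraries were the lowest, at 21.1, 24.6 and 24.3 FPKM (23.4 ± 1.92). Nucleoplasm stood at 268.2, 289.4 and 141.5 FPKM (233.0 ± 80.0), cytoplasm at 169.0, 176.5 and 107.1 FPKM (150.9 ± 38.1) and chromatin at 51.0, 54.7 and 122.8 FPKM (76.2 ± 40.4). Cytoplasm overlapped both nucleoplasm and chromatin there, nucleoplasm and chromatin did not overlap, and library 3 was the odd one in each, with 2.32, 0.507 and 0.620 times the mean of libraries 1 and 2 in chromatin, nucleoplasm and cytoplasm. The cytoplasm level of Trh was 0.973 times as high in EpiLC as in nESC in FPKM means, while the total RNA level was 16.3-fold lower. A total RNA level at least 2-fold above the highest fraction was seen for 52 of 12592 genes in nESC (0.413%), Trh among them, and a total RNA level at least 2-fold below the lowest fraction for 11 of 12834 genes in EpiLC (0.0857%), Trh again among them. Of the 7 genes, Trh alone was in either set, and the 2-fold limit was chosen after its values were seen. The hypothalamic markers Sim1, Tshb, Crh and Avp stayed at or under 0.204 FPKM in every group mean, and the 5 listed, Pomc included, summed to at most 4.31 FPKM in any library.

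Between the tables of the 2 states no level was tested, since the authors normalized them separately. Over 13722 genes the median EpiLC minus nESC difference in total RNA was 0.02 on the log2 scale. Fabp3 was lower in EpiLC total RNA by -5.14, Trh by -4.00, Lst1 by -3.84, S100a1 by -2.80 and Napsa by -1.93, and in each of these 5 genes every nESC total RNA library was above every EpiLC one. That separation is given without a share over all genes, so nothing is read from it. Over all 13722 genes 12.3% were at least 2-fold lower in EpiLC total RNA, and nothing is read from the count of 5, since the genes were picked on values of these libraries. Smim22 was at -0.39 and Fxyd4 at 0.03. In cytoplasm the differences were -4.91 for Fabp3, -4.30 for S100a1, -4.18 for Lst1, -3.28 for Napsa, -2.90 for Fxyd4, -0.81 for Smim22 and -0.07 for Trh. In chromatin they were -2.98 for Fabp3, -1.17 for S100a1, -1.14 for Lst1, -0.20 for Napsa, 0.57 for Trh, 0.67 for Smim22 and 1.22 for Fxyd4.

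Fractions were compared within a state by limma on log2(FPKM + 0.5), and a gene counted as called when its fold was 2 or more and its p, adjusted by the method of Benjamini and Hochberg, was below 0.05. In nESC, chromatin against cytoplasm called 61.5% of the 12592 genes tested, 29.7% lower and 31.8% higher, with a median of 0.04. Of the 7 genes 6 were called, all lower in chromatin. Large fraction differences were how the genes were chosen, so nothing is read from this count or from the counts of the 7 genes that follow. They were Smim22, S100a1, Lst1 and Fabp3 as above, Napsa at -2.34 (SE 0.10) and Trh at -1.71 (SE 0.15). When each library was scaled to 1 FPKM sum instead, the median of every gene tested went up from 0.04 to 1.85 and Trh turned to 0.25, so its direction against cytoplasm depends on the scaling, while Smim22 (-3.93), S100a1 (-3.54), Lst1 (-3.45) and Fabp3 (-2.79) stayed called lower and Napsa (-0.59) did not stay called. Chromatin against nucleoplasm called 34.7% of genes (17.3% of all tested as lower in chromatin) and 6 of the 7, again all lower in chromatin. Lst1 (-3.95), Fabp3 (-3.76), S100a1 (-3.64) and Napsa (-3.52) held the ranks 2, 3, 4 and 8 from the lowest of all genes there, Smim22 was at -3.24 and Trh at -1.75. Nucleoplasm against cytoplasm called 39.9% of genes and 4 of the 7. Smim22 (-2.48), S100a1 (-1.78) and Lst1 (-1.17, which turned to 0.083 with libraries scaled to 1 FPKM sum) were lower in nucleoplasm and Napsa (1.18) was higher. Fabp3 (-0.999), Fxyd4 (-0.48) and Trh (0.04) were not called, and with libraries scaled to 1 FPKM sum Fabp3 turned to 0.27 and Fxyd4 to 0.57. Cytoplasm against total RNA called 35.4% of genes and 7 of the 7, 6 of them higher in cytoplasm: Lst1 (2.46), S100a1 (2.44), Smim22 (2.34), Napsa (1.62), Fabp3 (1.38) and Fxyd4 (1.04, and 0.90 without total RNA library 2). Trh was lower, at -1.29. Napsa, Fabp3 and Fxyd4 were not called with libraries scaled to 1 FPKM sum (0.71, 0.42 and 0.24) or after a correction for length and GC content (0.85, 0.59 and 0.61).

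**Figure D2:**
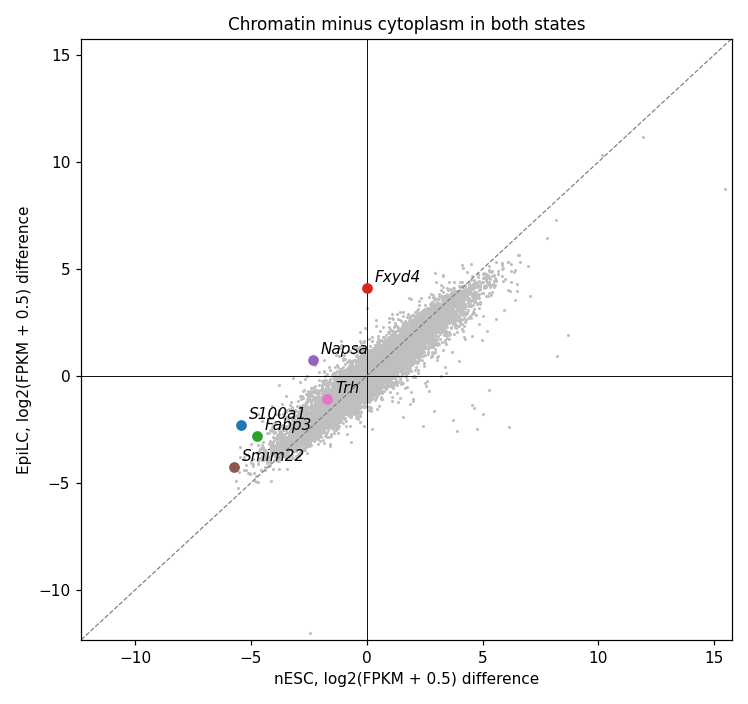
Chromatin minus cytoplasm on the log2(FPKM + 0.5) scale in nESC (horizontal axis) and EpiLC (vertical axis) for the 11704 genes tested in both states, with grey points for all genes, coloured points for 6 of the 7 genes and a dashed line where both states are equal. Fxyd4 (-0.01 and 4.11), Napsa (-2.34 and 0.74), S100a1 (-5.42 and -2.29) and Fabp3 (-4.76 and -2.83) lie above the line, and Trh (-1.71 and -1.07, both turning positive with libraries scaled to 1 FPKM sum) lies nearer to it.

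In EpiLC 6 of the 7 genes could be compared. Chromatin against cytoplasm called 57.6% of the 12834 genes tested, 28.4% lower and 29.1% higher, with a median of 0.00, and 5 of the 6. Fxyd4 was higher in chromatin (4.11), and Smim22 (-4.25), Fabp3 (-2.83), S100a1 (-2.29) and Trh (-1.07) were lower. The Trh value turned to 0.76 with libraries scaled to 1 FPKM sum, its groups overlapped, and it stayed past 2-fold (-1.70) without the libraries numbered 3 but not without chromatin library 1 (-0.84) or 2 (-0.89) or cytoplasm library 1 (-0.97) or 2 (-0.94). Napsa was at 0.74 and was not called, but it was called at 1.96 with libraries scaled to 1 FPKM sum and at 1.68 after the length and GC correction. Without the libraries numbered 3, chromatin against nucleoplasm stood at 3.83 for Fxyd4, -2.15 for Fabp3, -1.79 for Smim22 and -2.39 for Trh. Chromatin against nucleoplasm called 32.7% of genes and 5 of the 6, with Fxyd4 at 3.51, Fabp3 at -1.87, Smim22 at -1.68, Trh at -1.66 and S100a1 at -1.02, the last of which was not past 2-fold without the libraries numbered 3 (-0.93). Nucleoplasm against cytoplasm called 39.2% of genes and 2 of the 6, Smim22 (-2.57) and S100a1 (-1.27). Cytoplasm against total RNA called 30.3% of genes and 4 of the 6: Trh at 2.63 (SE 0.34), the rank 3 from the highest of all genes, Smim22 at 1.92, Fabp3 at 1.62 and Fxyd4 at -1.90. The last of these was -3.75 with a pseudocount of 0.1 and -1.26 with 1. Fabp3 was not called with libraries scaled to 1 FPKM sum (0.64) or after the length and GC correction (0.90).

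**Figure D3:**
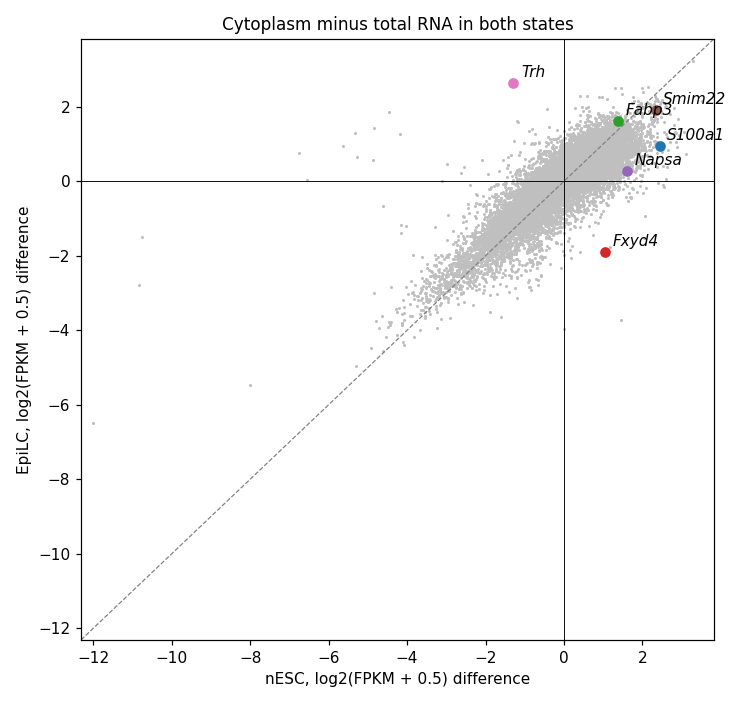
Cytoplasm minus total RNA on the log2(FPKM + 0.5) scale in nESC (horizontal axis) and EpiLC (vertical axis) for the 11704 genes tested in both states, with grey points for all genes and coloured points for 6 of the 7. Trh (-1.29 and 2.63) and Fxyd4 (1.04 and -1.90) lie in opposite corners, away from the other genes.

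The state difference, EpiLC minus nESC of the same fraction contrast with each library centred on its median gene, was fitted for 3 contrasts. For chromatin against cytoplasm it called 8.92% of 11704 genes (4.78% as higher, median -0.02) and 5 of the 6 genes, each with a higher chromatin minus cytoplasm value in EpiLC. A ratio that differed between the states was how some of the genes were chosen, so nothing is read from these counts. Fxyd4 had the highest value of all genes, 4.22 (SE 0.43), S100a1 stood at 3.23 (SE 0.36), Napsa at 3.17 (SE 0.39), Fabp3 at 2.02 (SE 0.34) and Smim22 at 1.58 (SE 0.40). Trh was at 0.74 (SE 0.44) and was not called. The Fxyd4 value was 6.34 with a pseudocount of 0.1 and 3.31 with 1. Without the EpiLC libraries numbered 3 the values were 4.60 for Fxyd4, 3.29 for S100a1, 2.94 for Napsa, 1.65 for Fabp3, 1.45 for Smim22 and 0.08 for Trh. Chromatin against nucleoplasm called 7.77% of genes (3.96% as higher) and the same 5: Napsa at 3.44 (SE 0.33), Fxyd4 at 3.07 (SE 0.48), S100a1 at 2.65 (SE 0.36), Fabp3 at 1.92 (SE 0.35) and Smim22 at 1.60 (SE 0.40), with Trh at 0.12 (SE 0.48). Without the libraries numbered 3 these were 3.08, 3.36, 2.72, 1.61, 1.46 and -0.63 in that order. Nucleoplasm against cytoplasm called 2.63% of genes and 1 of the 6, Fxyd4 at 1.15 (SE 0.28). That call was lost without nESC nucleoplasm library 1 (0.97) or EpiLC nucleoplasm library 1 (0.92), and with libraries scaled to 1 FPKM sum (0.28). The values of the others ran from -0.27 for Napsa to 0.62 for Trh. The 3 contrasts share libraries and are not separate evidence.

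Exonic length went with the fraction differences in all protein-coding genes. In nESC the median chromatin minus cytoplasm value was -2.87 for the 342 protein-coding genes under 1000 exonic bases, against -0.06 for all 11558, and 90.1% of the short ones were called. Among these 342, Smim22 held the rank 1 from the lowest, S100a1 7, Lst1 12 and Fabp3 23. The genes were picked on values of these libraries, so extreme ranks are built into the choice. Nothing is read from the ranks in a length class, here or below. In chromatin against nucleoplasm the same length class placed Lst1, Fabp3 and S100a1 at the ranks 1, 2 and 3 and Smim22 at 8. In EpiLC, where the median of the class was -2.56 over 346 genes, Smim22 was at the rank 18, Fabp3 at 140 and S100a1 at 195, so these last 2 stood inside the bulk of their class. The state difference of chromatin against cytoplasm had a median of 0.44 over 310 such genes, of which 16.8% were called, and S100a1 was the highest of them. After removal of the trend with length and GC content over all genes, the nESC values were -4.39 for Smim22, -4.12 for Lst1, -4.02 for S100a1, -3.28 for Fabp3, -1.31 for Napsa, -0.20 for Trh and 1.14 for Fxyd4. The corrected state differences were 4.11 for Fxyd4, 3.06 for Napsa, 3.00 for S100a1, 1.79 for Fabp3 and 1.25 for Smim22, the last of which was no longer called.

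**Figure D4:**
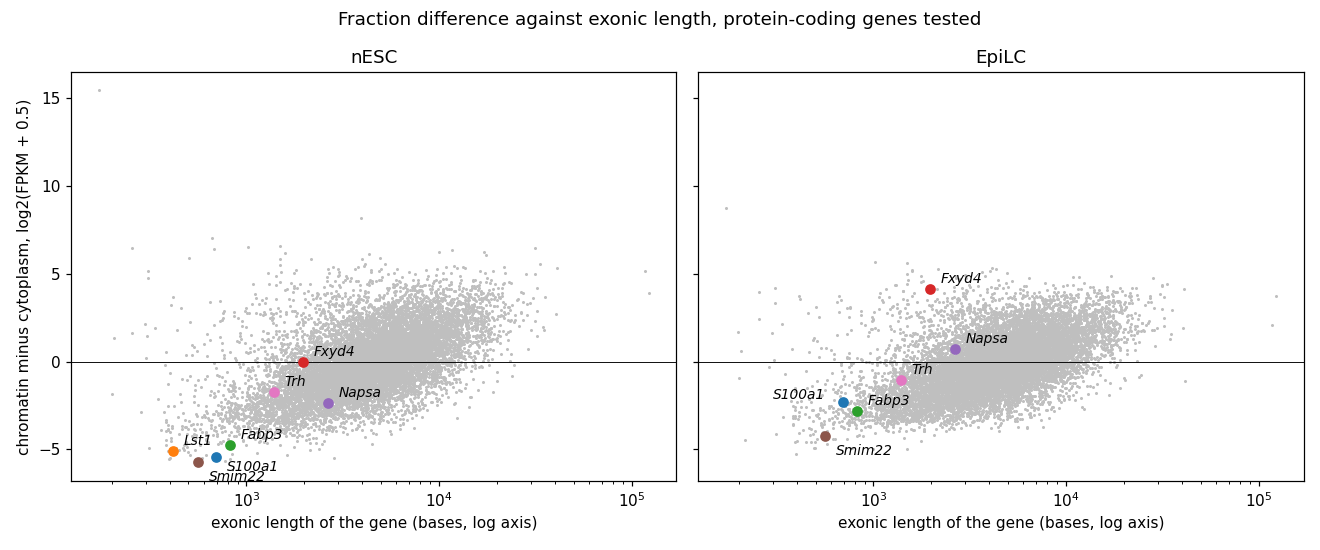
Chromatin minus cytoplasm on the log2(FPKM + 0.5) scale (vertical axis) against exonic length in bases (log axis) for protein-coding genes in nESC and EpiLC, with grey points for genes and coloured points for the 7 genes (6 in EpiLC). Short genes lie lower than long ones, and Smim22 (-5.73), S100a1 (-5.42), Lst1 (-5.12) and Fabp3 (-4.76) lie at the lower edge of their length class in nESC.

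S100a1 has a close neighbour outside the set followed above, but on a list compiled with earlier results of these data known. S100a13, another calcium-binding protein of the S100 family, starts 43 bases from the start of S100a1 on the opposite strand. The 42 bases between the annotated starts are shown because both genes are read outwards from them. They lie at chr3:90514393-90514434 of GRCm38 and are given on the minus strand, the strand of S100a1.
Between the starts: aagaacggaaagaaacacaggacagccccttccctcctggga
In nESC, S100a13 stood at 219.4, 189.2 and 199.6 FPKM in cytoplasm, at 70.9, 68.6 and 68.2 FPKM in nucleoplasm and at 8.21, 8.78 and 5.62 FPKM in chromatin. In EpiLC it was at 3.33, 3.79 and 3.38 FPKM in cytoplasm, at 1.04, 1.23 and 1.34 FPKM in nucleoplasm and at 0.779, 0.513 and 0.679 FPKM in chromatin. In nESC its range overlapped that of S100a1 in each of the 3 fractions, and in EpiLC every one of its libraries was below every S100a1 library of the same fraction. Chromatin minus cytoplasm was -4.68 (SE 0.13) in nESC, with a limma adjusted p of 1.64e-12, and -1.79 (SE 0.14) in EpiLC, with a limma adjusted p of 9.29e-08. The state difference of S100a13 was 2.98 (SE 0.23, limma adjusted p = 5.77e-06), beside 3.23 for S100a1. The EpiLC chromatin values of S100a13, 0.513 to 0.779 FPKM, were near the 0.5 FPKM added before the log. Its EpiLC value and its state difference therefore depend on that pseudocount. S100a14, farther along the same strand as S100a13, was at or under 0.518 FPKM in every group mean.

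**Figure D5:**
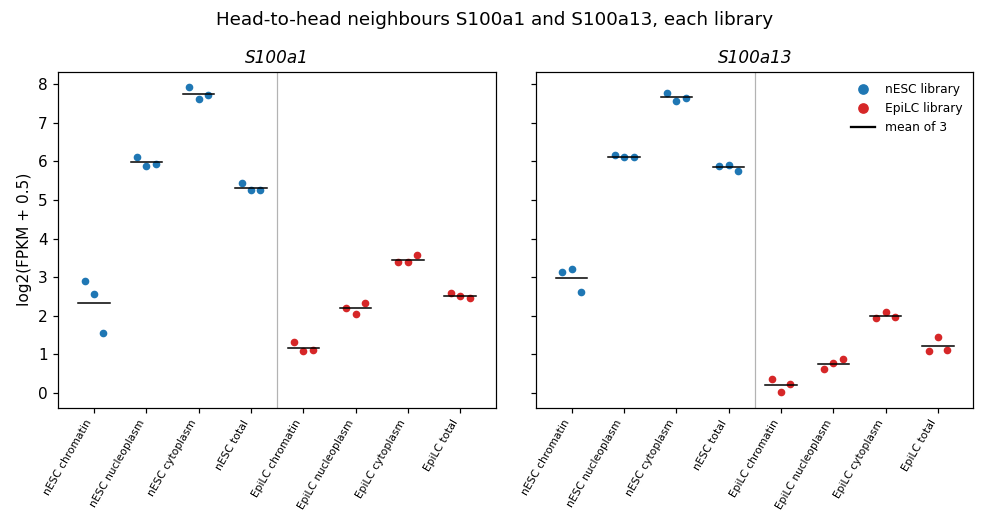
Levels of S100a1 (left) and S100a13 (right) in each of the 24 libraries on the log2(FPKM + 0.5) scale (vertical axis) by group (horizontal axis), with points for libraries and lines for the mean of 3. Both are highest in nESC cytoplasm and lower in every EpiLC group, and in EpiLC the spread between fractions is smaller for both.

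Other genes of each family were read from lists compiled with earlier results of these data known, leaving out the 7 genes. The lists were not matched for exonic length, and nothing is read from their counts beyond a description. For protein-coding genes under 1000 exonic bases the median chromatin minus cytoplasm value was -2.87 in nESC and -2.56 in EpiLC. Of the FXYD family and the sodium pump subunits, 6 of 12 were tested in nESC, and 4 were lower and 0 higher in chromatin than in cytoplasm (median -1.85), against 29.7% and 31.8% and a median of 0.04 over all genes. The same shares, or 28.4% and 29.1% in EpiLC, are the background of each chromatin against cytoplasm count that follows. For the counts of state differences the background is the 8.92% of all genes called, 4.78% as higher. Fxyd6, a relative of Fxyd4 known from brain, was at -4.28 (limma adjusted p = 3.51e-12) and Fxyd2, the kidney gamma subunit, at -3.88 (limma adjusted p = 1.81e-11). In EpiLC 4 of 8 were lower and 0 higher. Fxyd6 was the 1 of 5 called for a state difference, at 2.21 (SE 0.29, limma adjusted p = 0.00033), or 1.89 without the EpiLC libraries numbered 3. In EpiLC its chromatin minus cytoplasm value was -2.17, and -0.36 and not called with libraries scaled to 1 FPKM sum.

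Of the S100 list, 4 of 6 were lower and 1 higher in nESC chromatin (median -1.76). S100a10, the annexin partner, was at -3.75 (limma adjusted p = 1.75e-13), and the higher one was S100pbp, which encodes a binding partner of an S100 protein, at 1.26 (limma adjusted p = 2.19e-07), or 0.0035 (limma adjusted p = 0.969) after the length and GC correction. In EpiLC 5 of 6 were lower and 1 higher, and S100a10 was at -3.41. S100a13 was the 1 of 6 called for a state difference. Of the intracellular lipid-binding proteins, 4 of 4 were lower in nESC chromatin (median -3.18) and 5 of 5 in EpiLC (median -3.11), with Crabp1, a retinoic acid carrier, at -4.43 and -3.57 and Fabp5 at -3.07 in nESC (limma adjusted p = 5.80e-11, 3.87e-10 and 7.08e-11). Of 4 tested for a state difference, limma called 0, with 1 at an unadjusted p under 0.05. Unlike Fabp3, Fabp5 stood higher in EpiLC cytoplasm than in nESC cytoplasm, at means of 154.4 and 22.0 FPKM.

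Of the small integral membrane proteins named Smim, 10 of 13 were lower and 1 higher in nESC chromatin (median -1.84), with Smim11 at -3.12 and Smim26 at -2.93 (limma adjusted p = 5.56e-10 and 1.32e-09). In EpiLC 11 of 15 were lower and 3 higher. For a state difference limma called 0 of 13, with 4 at an unadjusted p under 0.05. Of the class III neighbours of Lst1, 4 of 8 were lower and 0 higher in nESC chromatin (median -1.19). Csnk2b, a casein kinase subunit, was at -3.04 (limma adjusted p = 4.84e-12). Its immediate neighbours with immune roles were low, with Aif1, Tnf and Lta at or under 0.129 FPKM in every group mean and Ltb at 2.46 FPKM at most. Nfkbil1 had the 1 state difference called among 8, at 1.19 (SE 0.20, limma adjusted p = 0.00145), and its EpiLC value of -1.30 turned to 0.42 with libraries scaled to 1 FPKM sum.

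Of the aspartic proteases, 2 of 7 were lower and 1 higher in nESC chromatin (median 0.24), and in EpiLC 0 of 6 were lower and 1 higher. Pgc, the pepsinogen C gene, was at -2.65 in nESC (limma adjusted p = 1.82e-11). Sppl2a, an intramembrane protease, was higher in chromatin in nESC at 1.62 (limma adjusted p = 2.95e-08), which turned to -0.50 after the length and GC correction, and Ctsd, the lysosomal protease cathepsin D, was at -1.03 (limma adjusted p = 0.000191), which turned to 0.93 with libraries scaled to 1 FPKM sum and to 0.15 after that correction. For a state difference limma called 0 of 6, with 2 at an unadjusted p under 0.05. Of the peptide hormone processing and thyrotropin-releasing hormone signalling genes, 2 of 7 were lower and 1 higher in nESC chromatin (median -0.01). The receptors Trhr and Trhr2 stayed at or under 0.0186 and 0.0431 FPKM in every group mean and the degrading enzyme Trhde at or under 0.0384 FPKM. Pcsk1, a convertase that cuts prohormones at paired basic residues, stood at 6.06 FPKM in nESC chromatin, 9.72 in nucleoplasm, 1.70 in cytoplasm and 4.87 in total RNA, and was higher in chromatin than in cytoplasm at 1.56 (limma adjusted p = 4.28e-08), or 0.22 (limma adjusted p = 0.16) after the length and GC correction. Cpe, the carboxypeptidase that trims the cut peptides, had a state difference of 1.63 (SE 0.42, limma adjusted p = 0.0172), and its nESC value of -1.497 turned to 0.24 with libraries scaled to 1 FPKM sum. Chga, a granule protein, had a state difference of 1.45 (SE 0.29, limma adjusted p = 0.00394). These 2 of 6 were the ones called in that list, and Trh itself was not.

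The genes most like each of the 7 over all 24 libraries were found by Pearson's r on centred log2 levels among 10311 candidates. The 24 libraries share 8 groups and 2 tables, so r mostly reflects the group means and is given without a p-value. Fabp3 went most closely with Ifitm1 (r = 0.995), Calb2 (0.990) and Mgarp (0.986), and S100a1 with Gstm3 (0.983), Hes1 (0.979) and Asb9 (0.978). The closest for Lst1 were Patl2 (0.984), Dpys (0.972) and Copz2 (0.970), and for Smim22 they were Nthl1 (0.988), Efhd2 (0.986) and Pigyl (0.984). Napsa was nearest to Dkk3 (0.969), Gpx6 (0.959) and Ifnlr1 (0.956). For Trh and Fxyd4 no gene came as close: the highest were Slc29a1 (0.876), Cds2 (0.875) and Sptlc1 (0.860) for Trh, and Dnajb13 (0.870), Tbc1d8 (0.869) and Fbxl2 (0.855) for Fxyd4. Among the 7, S100a1 and Lst1 (0.967), Fabp3 and S100a1 (0.959) and Fabp3 and Lst1 (0.957) were most alike, while Fxyd4 had r from -0.371 to 0.297 with the other 6.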

How the data were processed

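Nuclei were isolated over a sucrose cushion before fractionation, and RNA of 24 libraries was measured by stranded total RNA sequencing after depletion of ribosomal RNA, per the labels' protocols. The authors deposited 1 table of FPKM values for each state, normalized separately, and the submitters' processing notes name TopHat2, Cuffnorm and the mouse build mm10 (GRCm38). The sources used here give no aligner settings, annotation version or strand setting.

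From these FPKM values, log2(FPKM + 0.5) was fitted with limma 3.58.1 (R 4.3.3, lmFit and eBayes with trend, two-sided) in genes whose mean was 1 FPKM or more across a table's 12 libraries. Benjamini-Hochberg adjustment covered all genes tested. State differences required that mean in both tables and used the 12 libraries of the 2 fractions. Gene structures, lengths and coding sequences came from GENCODE on GRCm38, and the stretch beside S100a1 from a RefSeq table of GRCm38.p6, in which 5 of the 7 genes had a window. The fits were tested on simulated data. Depth is known only from the steps of low FPKM values, 89.7% to 95.7% of which lay within 10% of a whole multiple.

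The genes described and the related-gene lists were chosen with earlier results of these data known. Named list genes were up to 3 called genes by fold per list and comparison, with at least 5 FPKM in the higher group. A few genes of these lists are not reported here and are left out of the counts. Like genes were the 3 with the highest r among genes reaching 5 FPKM in a group. Replicate numbers were not used as pairs in the main fits. Same-numbered libraries of a state deviated together at r over 0.1 in 4 of 18 pairs in nESC and 3 of 18 in EpiLC. Different-numbered libraries did so in 5 of 36 and 9 of 36 pairs. Same-numbered pairs ran from r = -0.149 to 0.221 in nESC and from -0.291 to 0.202 in EpiLC. These values do not settle whether same-numbered libraries came from 1 preparation. Alternatives covered the pseudocount, the filter, centring, scaling to 1 FPKM sum, a length and GC correction, a replicate block, the fit of 2 groups only and leaving out libraries. Those without the EpiLC libraries numbered 3 and the left-out total RNA libraries were added after seeing the data.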

Additional observations from a re-analysis of the deposited data

Results flagged for a closer look

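Fxyd4 and Trh moved in opposite directions between fractions in the 2 states, in every library of the groups compared. Fxyd4 was lower in nucleoplasm than in cytoplasm in nESC (-0.48 on the log2 scale, turning to 0.57 with libraries scaled to 1 FPKM sum and to 0.19 after the length and GC correction) and higher in EpiLC (0.60). The fitted difference of these was 1.15 (SE 0.28), given as a description because Fxyd4 was picked on such values. For cytoplasm against total RNA the difference between the states was not tested. In cytoplasm against total RNA it was higher in nESC (1.04) and lower in EpiLC (-1.90), where it was listed at 0 in 2 of 3 cytoplasm libraries. Trh was lower in cytoplasm than in total RNA in nESC (-1.29) and higher in EpiLC (2.63), or 2.89 without the EpiLC libraries numbered 3.

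The related-gene lists were compiled with earlier results of these data known, and the genes named here are those called for this contrast. Their adjusted p-values are therefore a description and not independent support. Over all 11704 genes, limma called 8.92% for a state difference of chromatin against cytoplasm, 4.78% as higher. By this interaction in limma the largest were S100a13 (2.98, adjusted p = 5.77e-06) and Fxyd6 (2.21, adjusted p = 0.00033). Then came Cpe (1.63, adjusted p = 0.0172), Chga (1.45, adjusted p = 0.00394) and Nfkbil1 (1.19, adjusted p = 0.00145). Without the EpiLC libraries numbered 3 these were 2.91, 1.89, 1.35, 1.19 and 1.08 (adjusted p = 8.60e-05, 0.000405, 0.0216, 0.00612 and 0.00457).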

How the results depend on the processing

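Low chromatin levels and the floor of EpiLC cytoplasm rest on few fragments, and each group has 3 libraries. Over 70 values of the 7 genes, a replicate block changed 0 of the 50 calls, and the counts over all genes with the replicate block were 7748, 5028, 4376 and 4454 in nESC (chromatin against cytoplasm, nucleoplasm against cytoplasm, chromatin against nucleoplasm, cytoplasm against total), 7386, 5033, 4200 and 3891 in EpiLC, and 939, 314 and 886 for the state differences. Leaving out the filter, the trend or isolated zeros, or fitting 2 groups only, changed 0 calls of the 7 genes either. Scaling each library to 1 FPKM sum lost 16 of the 50 calls and gave 6 others. The length and GC correction lost 12 and gave 6. A pseudocount of 1 lost 3 and one of 0.1 gave 3. Centring lost 1 of 39 and gave 3.

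With libraries scaled to 1 FPKM sum, chromatin against cytoplasm turned to 0.25 for Trh, 0.93 for Ctsd and 0.24 for Cpe in nESC and to 0.76 for Trh and 0.42 for Nfkbil1 in EpiLC, and nESC nucleoplasm against cytoplasm turned to 0.083 for Lst1. The length and GC correction turned Sppl2a to -0.50 and Ctsd to 0.15 in nESC and Trh to 0.22 in EpiLC. It called 3335 genes for nucleoplasm against cytoplasm and 2471 for cytoplasm against total in nESC, and 3285 and 2118 in EpiLC. The state differences called 1880, 598 and 1743 genes with no filter and 618, 182 and 486 at a mean of at least 5 FPKM (chromatin against cytoplasm, nucleoplasm against cytoplasm, chromatin against nucleoplasm), where the number of genes tested changes too. Scaling to 1 FPKM sum called 525 for the second. The EpiLC minus nESC level in total RNA became -2.60 for S100a1, -0.17 for Smim22 and -3.78 for Trh. The causes were not tested.

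Scaling to 1 FPKM sum moved the split of higher and lower calls from 4003 and 3742 to 8416 and 751 in nESC chromatin against cytoplasm, from 2577 and 2451 to 6159 and 129 in nucleoplasm against cytoplasm, from 2195 and 2179 to 4862 and 921 in chromatin against nucleoplasm and from 2012 and 2441 to 223 and 4990 in cytoplasm against total. In EpiLC the same splits moved from 3737 and 3649 to 8396 and 662, from 2579 and 2456 to 5135 and 220, from 2058 and 2141 to 4819 and 502 and from 1630 and 2260 to 46 and 4875. For the state differences they moved from 559 and 485 to 347 and 856, from 131 and 177 to 64 and 461 and from 464 and 445 to 546 and 306. Centring gave 2064 and 3369 in nESC and 2196 and 3266 in EpiLC for nucleoplasm against cytoplasm and 2732 and 2069 in nESC for cytoplasm against total. Without centring the state difference of chromatin against cytoplasm had 452 and 662 and that of nucleoplasm against cytoplasm 94 and 220.

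Leaving out 1 library gave 7654 to 7787, 4891 to 5160, 4365 to 4418 and 4387 to 4576 calls in nESC, 7240 to 7581, 4768 to 5436, 4054 to 4554 and 3584 to 4412 in EpiLC, and 933 to 1228, 284 to 399 and 804 to 1180 for the state differences of chromatin against cytoplasm, nucleoplasm against cytoplasm and chromatin against nucleoplasm. The total RNA levels ran from -5.26 to -5.04 for Fabp3, from -0.10 to 0.19 for Fxyd4, from -4.01 to -3.64 for Lst1, from -2.07 to -1.81 for Napsa, from -2.84 to -2.74 for S100a1, from -0.47 to -0.33 for Smim22 and from -4.07 to -3.92 for Trh. Of 528 values of the 7 genes it lost 11 of 366 calls and gave 6, all of them near a fold of 2: besides those named in the results, S100a1 in EpiLC chromatin against nucleoplasm was at -0.98 without chromatin library 2, -0.99 without chromatin library 3 and -0.95 without nucleoplasm library 3, Fxyd4 in nESC cytoplasm against total at 0.95 without cytoplasm library 3, Fabp3 in nESC nucleoplasm against cytoplasm was gained at -1.01 without nucleoplasm library 1, at -1.04 without cytoplasm library 2 and at -1.01 without cytoplasm library 3, and in EpiLC at -1.03 without nucleoplasm library 3, and Napsa in EpiLC was gained at 1.05 without chromatin library 1 (chromatin against cytoplasm) and at 1.06 without cytoplasm library 1 (nucleoplasm against cytoplasm).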
